A study of Mus musculus with 6 samples.

Results

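The genes described here are the mouse translation initiation factors together with the kinases and binding proteins that control them. They were taken from a gene count table as the protein-coding genes whose symbol begins with Eif and a number. This gave 55 genes of 49671 identifiers in the table, of which 49412 matched a symbol and 21811 were protein-coding. Another 8 Eif-named genes of other biotypes (pseudogenes and the like) were left out. The cells were LSK cells (Lineage-negative, Sca-1+ and Kit+), the bone marrow fraction enriched for blood stem and progenitor cells, from BALB/c mice. Before the sort, marrow enriched for early cells had been transduced with a GFP-marked retrovirus that carried either a short hairpin against Cxxc5 (shCxxc5) or a control hairpin with no mouse target (shCtrl). GFP+ LSK cells were sorted, pooled over several animals, and 20000 to 50000 of them gave each RNA sample. There were 3 libraries a group, numbered 2, 3 and 4 in both, and the labels give 1 hairpin name per group with no age of the mice.

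Initiation begins when eIF2, a trimer carrying GTP, brings the initiator tRNA to the small ribosomal subunit, helped by eIF1, eIF1A, eIF3 and eIF5. The eIF4F complex (the cap-binding eIF4E, the helicase eIF4A and the scaffold eIF4G) recruits the mRNA, and eIF4E binding proteins compete with eIF4G for eIF4E until mTORC1 phosphorylates them. Stress kinases phosphorylate eIF2 alpha, which then blocks its exchange factor eIF2B, lowers general initiation and favours mRNAs such as that of Atf4. Blood stem cells are known for a low rate of protein synthesis compared with the progenitors they produce.

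Total counts lay between 15002414 and 27754019 per library. Cxxc5, the targeted gene, stood at 82.2, 59.9 and 57.9 CPM (counts scaled to a common library size by the trimmed mean of M-values, TMM) in shCtrl libraries 2, 3 and 4. It stood at 6.74, 17.4 and 17.9 CPM in the matching shCxxc5 libraries, lower in every pair (exact permutation test on 3 against 3, two-sided p = 0.1, the smallest this design allows). Both libraries numbered 2 stood apart from the other 4. Ly6a, which encodes Sca-1, was at 46.4 and 33.1 CPM in them and between 703 and 804 CPM elsewhere, against the sort label, while Kit lay between 82.4 and 110 CPM in all 6. Summed megakaryocyte markers were at 6478 and 1552 CPM in the shCtrl and shCxxc5 libraries numbered 2, against 295 to 478 elsewhere. Granulocyte and monocyte markers were at 732 and 5296 CPM against 900 to 1088, mast cell and basophil markers at 175 and 1384 against 295 to 324, and erythroid markers at 546 and 1044 against 434 to 538. B cell markers summed to at most 1.77 CPM in any library. T and NK cell markers summed to between 43.9 and 81.8 CPM, mostly from Lck and Nkg7, while Cd3e was at 0 in all 6. By contrast, libraries 3 and 4 of 1 group were nearly alike. A chi-square of their counts over genes was 2.33 per degree of freedom in shCtrl and 2.28 in shCxxc5, where 1 is counting noise alone, and 82.5 or more for every pair of libraries that included a number 2. They differed by more than counting noise and were kept as separate replicates. In bulk libraries such as these, fewer cells of a type and less RNA per cell cannot be told apart. Nothing in the labels gives the numbers as separate infections. The p-values below therefore set a group difference against the spread among these libraries, which may be technical spread alone.

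The comparison of groups was therefore made over all 6 libraries, within libraries 3 and 4, and as a ratio within each replicate number. It asked whether knockdown of Cxxc5 changed the mRNA of initiation factors. Sequences come first, for the site that the kinases act on, the sex-linked pair of eIF2 subunits, and the start regions of 4 members that rose in libraries 3 and 4.

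The coding stretch of Eif2s1 (eIF2 alpha) around the serine that all 4 eIF2 kinases phosphorylate lies in exon 2 at chr12:78866662-78866700, plus strand, in GRCm38. It is shown because the kinases and eIF2B below meet at this residue. The serine codon, in capitals, is codon 52 counting the initiator methionine and 51 without it.

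Eif2s1 coding: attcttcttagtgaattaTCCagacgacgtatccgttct

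The gamma subunit of eIF2 has an X-linked gene, Eif2s3x, and a Y-linked one, Eif2s3y, and the counts tell them apart only by their sequence differences. Each has 1419 coding bases with the stop codon, of which 86.3% were identical position by position. The first 90 coding bases span exons 1 and 2, at chrX:94211762-94212633 on the minus strand and chrY:1010617-1011280 on the plus strand of GRCm38. Capitals mark the 16 positions at which they differ.

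Eif2s3x coding: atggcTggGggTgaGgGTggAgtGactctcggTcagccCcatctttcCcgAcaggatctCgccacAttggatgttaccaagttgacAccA
Eif2s3y coding: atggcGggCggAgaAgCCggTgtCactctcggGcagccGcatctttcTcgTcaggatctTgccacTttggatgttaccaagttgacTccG

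The 150 bases before the start (RefSeq, GRCm38.p6) are shown for 4 members: of those higher in libraries 3 and 4 under every alternative setting, the 4 of largest change with 1 start in the table and at most 30 of these bases in an annotated exon. In pair 2 they did not share a direction: the log2 ratio of shCxxc5 over shCtrl was 0.46 for Eif1ax, -0.05 for Eif3b, -0.24 for Eif4g1 and -0.28 for Eif3a. Capitals mark CG dinucleotides, the sequence that CXXC-type zinc fingers are known to recognise when unmethylated. The stretches lie at chr5:140419155-140419304 (plus strand), chr16:20672577-20672726 (plus), chrX:159372028-159372177 (plus) and chr19:60790694-60790843 (minus). That of Eif4g1 lies inside the annotated gene (chr16:20668313-20692884), before a start downstream of the outermost one.

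Eif3b start: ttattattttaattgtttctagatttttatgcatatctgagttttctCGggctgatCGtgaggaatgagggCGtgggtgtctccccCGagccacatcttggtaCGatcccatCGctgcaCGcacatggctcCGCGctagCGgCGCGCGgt
Eif4g1 start: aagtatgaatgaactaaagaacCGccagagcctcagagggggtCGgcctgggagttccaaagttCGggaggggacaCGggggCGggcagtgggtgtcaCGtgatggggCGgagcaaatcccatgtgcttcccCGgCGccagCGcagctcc
Eif1ax start: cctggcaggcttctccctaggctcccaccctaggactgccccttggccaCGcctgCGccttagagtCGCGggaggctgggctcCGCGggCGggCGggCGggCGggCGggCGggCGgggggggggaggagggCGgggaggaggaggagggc
Eif3a start: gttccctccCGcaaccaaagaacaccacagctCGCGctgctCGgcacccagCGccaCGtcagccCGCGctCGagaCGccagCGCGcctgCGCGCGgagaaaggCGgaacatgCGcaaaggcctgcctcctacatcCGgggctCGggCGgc

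These 4 stretches held 13, 10, 14 and 20 CG dinucleotides. Over the 250 bases before the start, the median was 19 CG in the 56 entries of the 43 members found in the table and 6 in all 32851 entries. The 12 members with no entry were Eif1a, Eif2b3, Eif3e, Eif3h, Eif3i, Eif3j2, Eif4e1b, Eif4e3, Eif4ebp1, Eif4ebp3, Eif4g2 and Eif6. Members that were higher in libraries 3 and 4 had a median of 18, and the other tested members, which include some called lower, 20. The starts were thus CG-rich whether or not the member was called higher. The E-box CACGTG, a palindrome that MYC and related factors bind, was searched on both strands of the 300-base windows (250 before to 50 after the start). It occurred in 12 of 56 member windows (21.4%), from 10 genes, and in 7.15% of all windows. The genes were Eif1b, Eif3a, Eif3f, Eif3k, Eif4a1, Eif4e, Eif4g1, Eif4h, Eif5a and Eif5a2. Of these, Eif3a, Eif4a1, Eif4g1 and Eif4h were among the members higher in libraries 3 and 4, to which 21 of all 56 member windows belonged. The E-box itself holds a CG, and member starts were richer in CG than all starts. No share matched for CG content was taken, so the 21.4% cannot be read as particular to these genes. The composite C/EBP-ATF element TGATGNAAN, which ATF4 can bind, occurred in 1 member window (1.79%), that of Eif2s3x, and in 3.95% of all windows.

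After a filter on low counts, 53 of the 55 members were tested. Eif4e1b, an oocyte-type relative of eIF4E, had no count in any library, which allows at most 3 counts in each. Eif4ebp3 had between 0 and 11 counts a library. Members were abundant transcripts: the median of their mean levels was 149.9 CPM against 25.4 CPM over all tested genes.

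With all 6 libraries, the quasi-likelihood test of edgeR called no member and 0% of the 14637 genes tested, with or without the replicate number as a block (0% again). It did not call the targeted gene Cxxc5 either (log2 fold change -2.25, edgeR adjusted p = 0.940 without the block). The lack of a call here therefore does not show that a member was unchanged. At an unadjusted p under 0.05 the edgeR test without the block had 575 genes and 4 members, Eif2s1, Eif2b1, Eif3g and Eif4a3, all higher in shCxxc5. DESeq2 called 0.130% of genes and no member. Within libraries 3 and 4, where the spread was small, 22 of the 53 tested members were higher and 4 lower in shCxxc5, against 10.96% and 9.00% of the 14193 genes tested. These 4 libraries come without the pair that stood apart, and their calls rest on 2 libraries a group. Since abundant genes are called more often, the same counts were taken over genes of at least 50 CPM. Of 42 such members 20 were higher and 4 lower, against 23.7% and 11.1% of the 5083 genes at that level. Scaling by the upper quartile gave 19 members higher and 7 lower, against 8.68% and 10.1% of genes, and no longer called Eif1ad, Eif2ak2 and Eif4g2. DESeq2 gave 11 higher and 2 lower, against 5.42% and 4.11% of genes. In 11 members the call held under all 13 alternatives: Eif2s1, Eif1a, Eif1ax, Eif3a, Eif3b, Eif3g, Eif4a3, Eif4b and Eif4g1 rose, and Eif4ebp1 and Eif5 fell. The median log2 fold change was 0.12 over tested members and -0.003 over all tested genes. Markers of other cell types also differed between the groups in these 4 libraries. Of the 7 megakaryocyte markers 4 were lower in shCxxc5, and they summed to 478 and 476 CPM in shCtrl and to 305 and 295 CPM in shCxxc5. Of 6 tested erythroid markers 3 were lower and 1 higher, of 6 mast cell and basophil markers 2 were lower and 3 higher, and of 8 granulocyte and monocyte markers 2 were lower and 2 higher. The part of these markers in the members' differences was not tested.

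As a ratio within each number, 22 tested members were higher in shCxxc5 in all 3 pairs (19.03% of all tested genes were) and 5 were lower (22.4% of genes). The 5 were Eif2ak4, Eif1, Eif3f, Eif3h and Eif4ebp1. All 3 shCxxc5 libraries lay above all 3 shCtrl libraries for 9 members, Eif2s1, Eif2b1, Eif2b4, Eif1ad, Eif3g, Eif4a3, Eif4b, Eif4h and Eif6, against 6.72% of genes. They lay below for Eif2ak4 alone, against 6.35% of genes. No share among genes of like level was taken for the pair and overlap counts, so nothing particular to members can be read from them.

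**Figure D1:**
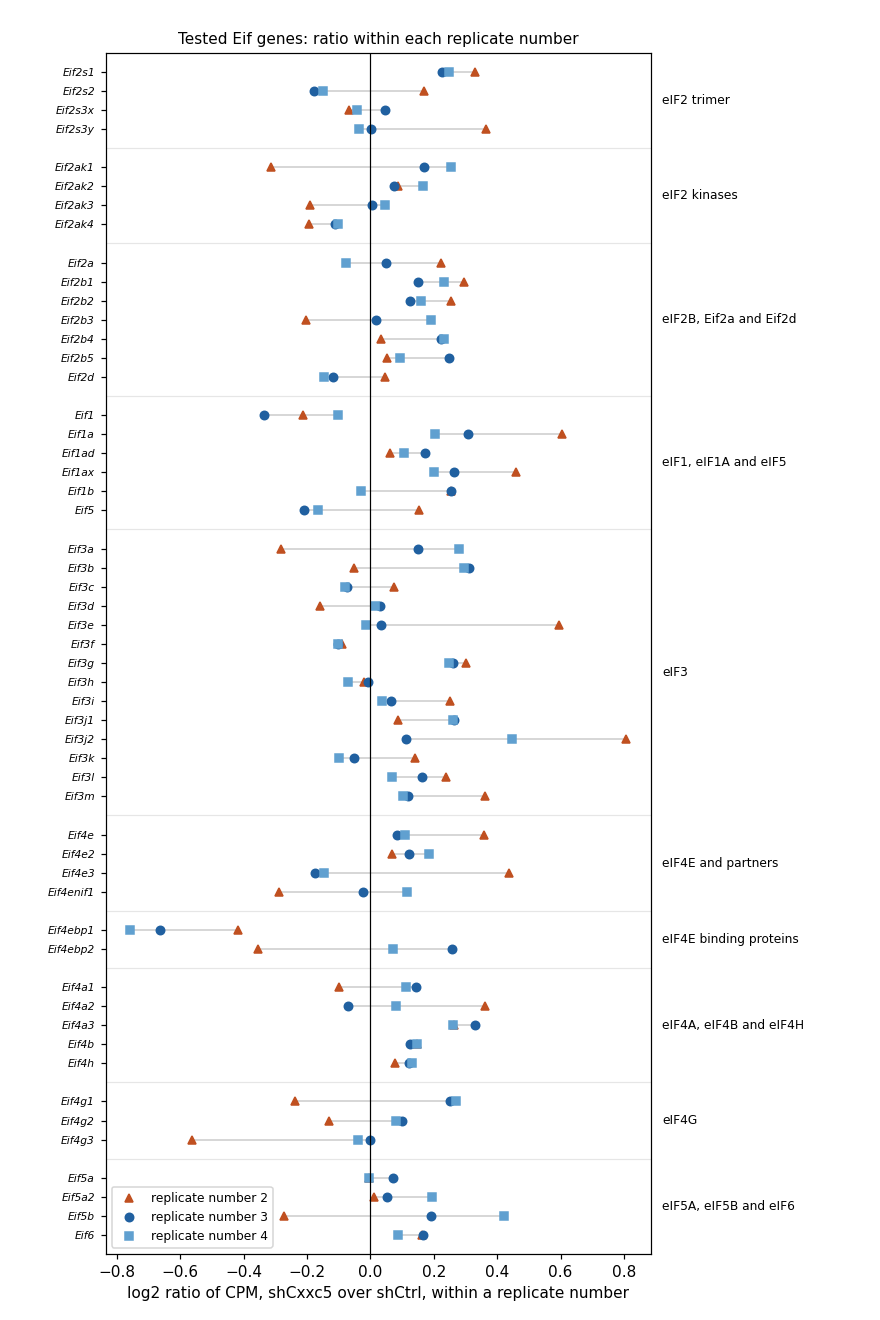
Log2 ratio of CPM (x axis), shCxxc5 over shCtrl within replicate numbers 2 (triangles), 3 (circles) and 4 (squares), for the 53 tested members grouped by role. Eif4ebp1 lies farthest to the left in numbers 3 and 4, and for many members the triangle lies away from the circle and square.

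The alpha subunit of eIF2, Eif2s1 (chr12:78861819-78887010, plus strand, GRCm38), was at 161, 185 and 181 CPM in shCtrl libraries 2, 3 and 4 and at 202, 216 and 215 CPM in shCxxc5. Every shCxxc5 library was above every shCtrl library. The means were 176 ± 13.0 and 211 ± 7.90 CPM (SD, n = 3), and within libraries 3 and 4 it rose by 18.2% (log2 fold change 0.24, SE 0.04, edgeR adjusted p = 3.23e-05). The beta subunit, Eif2s2, was at 111, 134 and 131 CPM in shCtrl and 125, 118 and 118 CPM in shCxxc5. The groups overlapped, since pair 2 went up and pairs 3 and 4 went down, and within libraries 3 and 4 it fell (log2 fold change -0.16, SE 0.04, edgeR adjusted p = 0.00812). DESeq2 did not call that fall (adjusted p = 0.0716).

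The gamma subunits did not pass any group test. Eif2s3x was at 19.8, 17.8 and 17.2 CPM in shCtrl and 18.9, 18.4 and 16.7 CPM in shCxxc5, overlapping throughout (log2 fold change within libraries 3 and 4 0.01, edgeR adjusted p = 0.955). Eif2s3y was at 68.3, 85.4 and 91.1 CPM in shCtrl and 88.0, 85.5 and 88.8 CPM in shCxxc5. Only the shCtrl library numbered 2 was low, and within libraries 3 and 4 the log2 fold change was -0.01 (edgeR adjusted p = 0.926). Counts of the Y-linked gene exceeded those of the X-linked one by 3.45 to 5.31 times, on a CPM scale not divided by length. Of the 50-base windows of Eif2s3x transcripts, 34.6% also occur in other annotated genes, mostly Gm2223, and none of those of Eif2s3y. Reads from such windows may have been discarded or split, so the size of that ratio is uncertain. Xist, the X-inactivation RNA, was at 0 in 5 libraries and at 0.0446 CPM in the other.

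The 4 eIF2 kinases sense different stresses, and they moved in different ways here. Eif2ak2 (PKR), activated by double-stranded RNA and induced by interferon, was at 84.4, 262 and 247 CPM in shCtrl and at 89.6, 276 and 278 CPM in shCxxc5. It was about as low in both libraries numbered 2, and in each pair shCxxc5 was slightly higher. In libraries 3 and 4 alone it rose by 8.86% (log2 fold change 0.12, SE 0.04, edgeR adjusted p = 0.0204), and DESeq2 did not call it (adjusted p = 0.0970). Between numbers, the difference was far larger: number 2 was lower than 3 and 4 by a log2 fold change of -1.61 (SE 0.06, edgeR adjusted p = 1.59e-05). All 12 listed interferon-response genes were lower in number 2 by the same test, and they summed to 353 and 318 CPM there against 2149 to 2249 CPM elsewhere. Their part in the level of Eif2ak2 was not tested.

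Eif2ak1 (HRI), the heme-regulated kinase, was at 55.2, 42.1 and 40.7 CPM in shCtrl and at 44.4, 47.4 and 48.6 CPM in shCxxc5. The groups overlapped because the shCtrl library numbered 2 was the highest of all 6. In libraries 3 and 4 it rose by 16.0% (log2 fold change 0.21, SE 0.06, edgeR adjusted p = 0.0183), while DESeq2 did not call it (adjusted p = 0.133). Counts on 659 of its exon bases could belong to genes on the other strand if strand was not used, among them Aimp2. Eif2ak3 (PERK), the sensor of unfolded protein in the endoplasmic reticulum, was at 53.8, 33.8 and 34.1 CPM in shCtrl and at 47.2, 33.9 and 35.3 CPM in shCxxc5. It was high in both libraries numbered 2 (log2 fold change of 2 over 3 and 4 0.56, SE 0.08, edgeR adjusted p = 0.00342) and lay between 33.8 and 35.3 CPM in the other 4. Its group difference within libraries 3 and 4 was 0.03 on the log2 scale (edgeR adjusted p = 0.831).

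Eif2ak4 (GCN2), which senses uncharged tRNA when amino acids run short, was at 89.9, 96.3 and 94.0 CPM in shCtrl and at 78.7, 89.1 and 87.6 CPM in shCxxc5. All shCxxc5 libraries lay below all shCtrl libraries, by a small margin. The means were 93.4 ± 3.26 and 85.1 ± 5.66 CPM (SD, n = 3), and no test called it (log2 fold change -0.10 within libraries 3 and 4, SE 0.05, edgeR adjusted p = 0.134). The ratio of Eif2ak2 to Eif2ak4 counts was 0.939 and 1.14 in the libraries numbered 2 and between 2.63 and 3.17 in the rest.

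**Figure D2:**
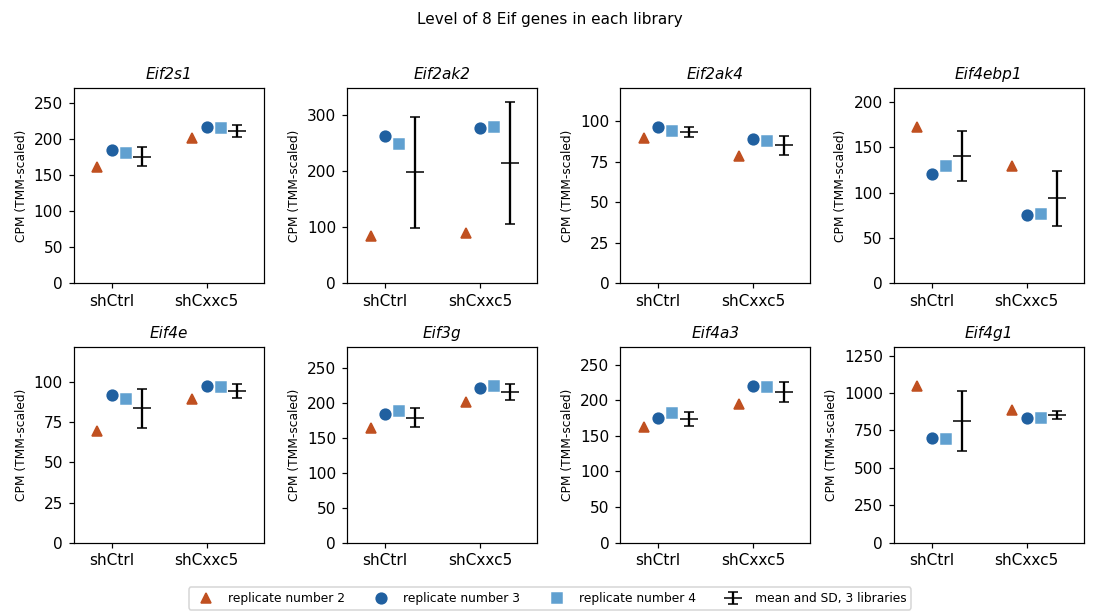
CPM (y axis, from 0) of 8 members in each library, with replicate number 2 as triangles, 3 as circles and 4 as squares, and the mean with its SD over 3 libraries beside each group. The shCxxc5 points of Eif2s1, Eif3g and Eif4a3 lie above all shCtrl points, Eif2ak2 is low in both libraries numbered 2, and Eif4ebp1 is lower in shCxxc5 at each number.

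Among the 7 genes of eIF2B and the eIF2-like factors Eif2a and Eif2d, 3 rose within libraries 3 and 4 and none fell. All 3 encode subunits of eIF2B, the exchange factor that reloads eIF2 with GTP. Beside this and the role counts below, 10.96% of all tested genes were higher and 9.00% lower there. At 50 CPM or more the shares were 23.7% and 11.1%. The counts of single roles were not tested against these shares. Eif2b1 (alpha) was at 74.2, 72.1 and 70.6 CPM in shCtrl and at 91.0, 80.0 and 83.0 CPM in shCxxc5. The groups did not overlap, and within libraries 3 and 4 the log2 fold change was 0.19 (SE 0.05, edgeR adjusted p = 0.00774), which DESeq2 did not call (adjusted p = 0.0746). Eif2b4 (delta) was at 51.3, 46.3 and 47.6 CPM in shCtrl and at 52.5, 54.0 and 55.9 CPM in shCxxc5, again without overlap, though pair 2 differed by only 0.03 on the log2 scale. Its log2 fold change within libraries 3 and 4 was 0.23 (SE 0.06, edgeR adjusted p = 0.00667), also not called by DESeq2 (adjusted p = 0.0716). Eif2b5 (epsilon, the catalytic subunit) was at 187, 179 and 198 CPM in shCtrl and at 194, 212 and 211 CPM in shCxxc5. It was higher within each pair but the ranges overlapped (log2 fold change within libraries 3 and 4 0.18, SE 0.04, edgeR adjusted p = 0.00327). Eif2b2, Eif2b3, Eif2a and Eif2d did not pass, with log2 fold changes there from -0.13 to 0.15.

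Of the 6 genes of eIF1, eIF1A and eIF5, which set the accuracy of start codon choice, 3 rose and 2 fell within libraries 3 and 4. The 2 genes of eIF1A, a factor that keeps the scanning ribosome open, moved together. Eif1a was at 150, 227 and 229 CPM in shCtrl and at 228, 282 and 264 CPM in shCxxc5, and Eif1ax at 163, 245 and 248 against 224, 294 and 285 CPM. In both, each pair was higher in shCxxc5 and the library numbered 2 was the lowest of its group, so that the groups overlapped. Within libraries 3 and 4 the log2 fold change was 0.26 for Eif1a (SE 0.04, edgeR adjusted p = 8.45e-06) and 0.24 for Eif1ax (SE 0.04, edgeR adjusted p = 1.63e-05). Eif1ad, a nuclear relative, rose by 0.15 on the log2 scale (SE 0.05, edgeR adjusted p = 0.0253; DESeq2 adjusted p = 0.170, not called), with 428 exon bases that overlap Banf1 on the other strand. Eif1 and Eif5 were the 2 that fell within libraries 3 and 4. Eif1 was at 72.3, 55.1 and 50.4 CPM in shCtrl and at 62.4, 43.6 and 46.9 CPM in shCxxc5, lower in each pair but overlapping because both libraries numbered 2 were high. Its log2 fold change within libraries 3 and 4 was -0.23 (SE 0.07, edgeR adjusted p = 0.0142), not called by DESeq2 (adjusted p = 0.122). Eif5, which triggers GTP hydrolysis by eIF2, was at 322, 331 and 327 CPM in shCtrl and at 358, 287 and 292 CPM in shCxxc5. It was thus higher in pair 2 and lower in pairs 3 and 4, where it fell by 0.18 on the log2 scale (SE 0.04, edgeR adjusted p = 0.000374). Eif1b did not pass (log2 fold change 0.13, edgeR adjusted p = 0.222).

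The 14 genes of eIF3, the largest initiation complex and the platform on the small subunit, split into 4 that rose within libraries 3 and 4 and 10 that did not pass. None fell. Of all genes of at least 50 CPM 23.7% were higher, so nothing particular to eIF3 can be read from the 4 that rose. Counts of the 14 genes summed to between 3874 and 4172 CPM in shCtrl and between 4063 and 4321 CPM in shCxxc5. Eif3b, a core subunit, was at 387, 317 and 342 CPM in shCtrl and at 374, 393 and 420 CPM in shCxxc5. The shCtrl library numbered 2 was as high as the shCxxc5 libraries, and within libraries 3 and 4 the log2 fold change was 0.31 (SE 0.04, edgeR adjusted p = 1.04e-06). Eif3g, which binds RNA near the entry channel, was at 164, 185 and 189 CPM in shCtrl and at 202, 222 and 224 CPM in shCxxc5. Here the groups did not overlap, the 3 pairs gave log2 ratios of 0.30, 0.26 and 0.25, and the fold change within libraries 3 and 4 was 0.26 (SE 0.04, edgeR adjusted p = 9.73e-06). Eif3a, the other core subunit, was at 476, 375 and 344 CPM in shCtrl and 392, 416 and 418 CPM in shCxxc5. Pair 2 had a log2 ratio of -0.28, while within libraries 3 and 4 it rose by 0.22 (SE 0.04, edgeR adjusted p = 0.000101). Eif3l rose by 0.12 (SE 0.04, edgeR adjusted p = 0.0178), a call that DESeq2 did not make (adjusted p = 0.0887).

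The remaining eIF3 genes had log2 fold changes from -0.10 to 0.27 within libraries 3 and 4. The upper end belonged to Eif3j1 and Eif3j2, near-identical copies at 4.98 to 7.68 and 3.93 to 7.62 CPM, of whose 50-base windows 50.9% and 91.8% are shared with other genes. Their values are therefore uncertain. The lower end was Eif3f, which was lower in all 3 pairs, with log2 ratios from -0.10 to -0.09 (edgeR adjusted p = 0.0548). Eif3e stood out in 1 library: it was at 213 CPM in the shCtrl library numbered 2 and between 321 and 372 CPM in the other 5. Eif3d overlaps the antisense gene Gm17638 over 2151 exon bases, and its 363 to 433 CPM may include reads of that gene.

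Of the 5 genes of eIF4E and its partners, 4 were tested and 1 rose. Eif4e, the cap-binding protein itself, was at 69.9, 92.0 and 89.9 CPM in shCtrl and at 89.7, 97.5 and 97.1 CPM in shCxxc5. Each pair was higher in shCxxc5, the shCtrl library numbered 2 was low, and the difference within libraries 3 and 4 did not pass (log2 fold change 0.10, SE 0.05, edgeR adjusted p = 0.136). Eif4e2 (4EHP), a cap-binding relative that represses translation, was at 103, 120 and 114 CPM in shCtrl and at 108, 131 and 130 CPM in shCxxc5. It was higher in each pair with overlapping groups, and rose within libraries 3 and 4 by 0.15 (SE 0.04, edgeR adjusted p = 0.0120), a call that DESeq2 did not make (adjusted p = 0.0939). Eif4e3 was at 11.5 and 15.6 CPM in the libraries numbered 2 and between 25.3 and 28.6 CPM elsewhere. Eif4enif1, the transporter that carries eIF4E into the nucleus, lay between 69.3 and 84.8 CPM and did not pass.

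The eIF4E binding protein Eif4ebp1 (4E-BP1, chr8:27260329-27276674, plus strand, GRCm38) had the largest group difference of the tested members within libraries 3 and 4. It is both an mTORC1 substrate and a known ATF4 target. It was at 172, 120 and 130 CPM in shCtrl libraries 2, 3 and 4 and at 129, 75.9 and 76.7 CPM in shCxxc5. All 3 pairs were lower in shCxxc5, by -0.42, -0.66 and -0.76 on the log2 scale, while the groups overlapped because both libraries numbered 2 were the high ones of their group. The means were 141 ± 27.7 and 93.8 ± 30.4 CPM (SD, n = 3), with a two-sided p of 0.2 in an exact permutation test on 3 against 3. In libraries 3 and 4 alone it changed by -38.6% (log2 fold change -0.70, SE 0.05, edgeR adjusted p = 9.07e-12). Over all 6 libraries the log2 fold change was -0.58 (SE 0.25, edgeR adjusted p = 0.940, and 0.297 with the replicate block). DESeq2 with the replicate block, an alternative added after seeing the data, called it alone among the members (adjusted p = 0.00192). The fall was smaller in pair 2 than in libraries 3 and 4, by 0.29 on the log2 scale (edgeR interaction, SE 0.08, adjusted p = 0.00246).

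The ratio of Eif4e to Eif4ebp1 counts was 0.406, 0.765 and 0.693 in shCtrl and 0.695, 1.28 and 1.27 in shCxxc5. It was higher in shCxxc5 in each pair, and the shCxxc5 library numbered 2 lay among the shCtrl values. Eif4ebp2 was at 16.9, 13.4 and 13.9 CPM in shCtrl and at 13.2, 16.1 and 14.6 CPM in shCxxc5, with no order between groups (log2 fold change within libraries 3 and 4 0.18, SE 0.11, edgeR adjusted p = 0.248). Eif4ebp3 had 8, 3 and 0 counts in shCtrl and 11, 4 and 2 in shCxxc5, and 65.5% of its windows are shared with an overlapping read-through gene. At this depth no difference of Eif4ebp3 was detectable.

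Among the 5 genes of the helicase eIF4A and its helpers eIF4B and eIF4H, 4 rose within libraries 3 and 4 and none fell. Eif4a3, the exon junction helicase, was at 163, 175 and 183 CPM in shCtrl and at 195, 220 and 219 CPM in shCxxc5. The groups did not overlap (173 ± 10.1 against 211 ± 13.9 CPM, SD, n = 3), and within libraries 3 and 4 it rose by 23.3% (log2 fold change 0.30, SE 0.04, edgeR adjusted p = 1.43e-06). Processed copies such as Gm5576 share 16.5% of its windows. Eif4b, which stimulates the helicase, was at 813, 785 and 775 CPM in shCtrl and at 901, 857 and 859 CPM in shCxxc5. This was a small shift in every pair, 0.15, 0.13 and 0.15 on the log2 scale, without overlap (within libraries 3 and 4 0.14, SE 0.03, edgeR adjusted p = 0.00121). Eif4h behaved alike, with 630 to 651 CPM in shCtrl and 665 to 708 CPM in shCxxc5 (log2 fold change 0.13, SE 0.03, edgeR adjusted p = 0.00299). Eif4a1, the main cytoplasmic helicase, rose by 0.13 within libraries 3 and 4 (SE 0.04, edgeR adjusted p = 0.0151; DESeq2 adjusted p = 0.0888, not called), with pair 2 at -0.10 and 28.4% of its windows shared with pseudogenes. Its paralogue Eif4a2 did not pass (0.01, edgeR adjusted p = 0.919).

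All 3 scaffold genes of eIF4G had a lower knockdown ratio in pair 2 than in pairs 3 and 4. Eif4g1, the main scaffold, was at 1044, 702 and 693 CPM in shCtrl and at 886, 835 and 835 CPM in shCxxc5. The shCtrl library numbered 2 was the highest of all, so the log2 ratio was -0.24 in pair 2 and 0.25 and 0.27 in pairs 3 and 4. Within libraries 3 and 4 it rose by 20.3% (log2 fold change 0.27, SE 0.03, edgeR adjusted p = 2.41e-07). Eif4g2 (DAP5), a scaffold without an eIF4E site, was at 877, 761 and 752 CPM in shCtrl and at 801, 816 and 795 CPM in shCxxc5. Like Eif4g1 it was lower in shCxxc5 in pair 2 and higher in pairs 3 and 4, with a log2 fold change of 0.10 within libraries 3 and 4 (SE 0.03, edgeR adjusted p = 0.03) that DESeq2 did not call (adjusted p = 0.0875). Eif4g3 was at 170, 97.9 and 98.9 CPM in shCtrl and at 115, 97.9 and 96.2 CPM in shCxxc5. Only the libraries numbered 2 were raised, the shCtrl one most, and libraries 3 and 4 differed by -0.01 on the log2 scale (edgeR adjusted p = 0.893).

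Of the genes for eIF5A, eIF5B and eIF6, which act at subunit joining and later steps, 2 of 4 rose within libraries 3 and 4. Eif5b, the GTPase of subunit joining, was at 31.8, 26.8 and 24.5 CPM in shCtrl and at 26.3, 30.5 and 32.8 CPM in shCxxc5. The shCtrl library numbered 2 again stood above its group, and within libraries 3 and 4 the log2 fold change was 0.30 (SE 0.08, edgeR adjusted p = 0.00815). DESeq2 did not call it (adjusted p = 0.0773), and 1643 of its exon bases overlap Rev1 on the other strand. Eif6, which keeps ribosomal subunits apart, was at 181, 194 and 200 CPM in shCtrl and at 203, 218 and 213 CPM in shCxxc5. The groups did not overlap, by a narrow margin, and the log2 fold change within libraries 3 and 4 was 0.13 (SE 0.04, edgeR adjusted p = 0.0127, DESeq2 adjusted p = 0.0811). Eif5a, the hypusine-carrying factor, lay between 722 and 759 CPM in all 6 libraries (edgeR adjusted p = 0.442), and Eif5a2 lay between 16.9 and 24.5 CPM.

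Replicate number also separated members. Libraries numbered 2 against 3 and 4, with group in the model, gave 6 members higher (17.7% of all 14637 genes) and 13 lower (18.7% of genes). Nothing particular to initiation factors can be read from these counts. Higher were Eif2ak3, Eif1, Eif4ebp1, Eif4g1, Eif4g3 and Eif5a2. Lower were Eif2ak2, Eif2a, Eif1a, Eif1ax, 6 genes of eIF3 (Eif3e, Eif3g, Eif3i, Eif3k, Eif3l and Eif3m), Eif4e, Eif4e2 and Eif4e3. After Eif2ak2, the next largest was Eif4e3 with a log2 fold change of -0.995 (SE 0.15, edgeR adjusted p = 0.00417). These counts moved with single libraries: leaving out the shCxxc5 library numbered 2 gave 14 higher and 23 lower, and leaving out the shCtrl library numbered 3 gave 3 and 4. The marker sums given above differ between the same libraries, and their part in these differences was not tested.

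**Figure D3:**
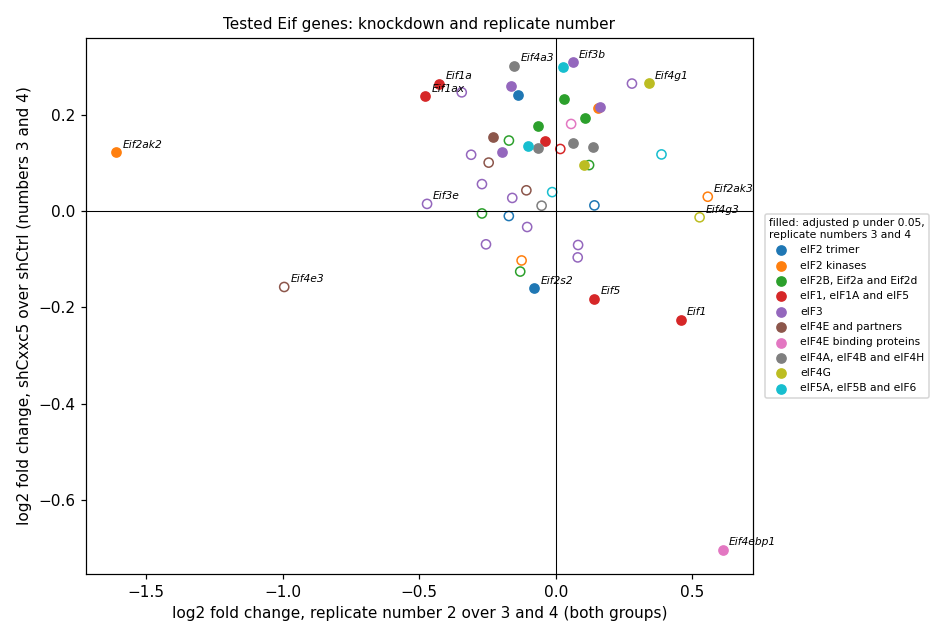
Log2 fold change of replicate number 2 over 3 and 4 (x axis) against that of shCxxc5 over shCtrl within numbers 3 and 4 (y axis) for the 53 tested members, coloured by role and filled where the knockdown comparison passed. Eif2ak2 lies far to the left with a small rise, and Eif4ebp1 lies alone at the bottom right.

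Whether the knockdown difference itself was the same in pair 2 as in pairs 3 and 4 was tested by an interaction term, an analysis added after seeing the data and resting on 2 residual degrees of freedom. It was higher in pair 2 for 15 members and lower for 12, against 16.8% and 19.01% of all genes. Those farthest below 0 were Eif5b, Eif4g3, Eif4ebp2, Eif2ak1, Eif4g1 and Eif3a, with differences of -0.57, -0.55, -0.53, -0.52, -0.50 and -0.49 on the log2 scale. Those farthest above were Eif4e3 with 0.60 and Eif3e with 0.58. For the 9 members whose shCxxc5 libraries all lay above the shCtrl libraries, the interaction did not pass, with differences from -0.20 for Eif2b4 to 0.11 for Eif2b1. These 9 were picked from the same libraries by a rule that leaves out members with an opposite pair 2. Their lack of an interaction is therefore no separate support for an even effect.

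Genes that work with these factors were taken from lists of the pathway. Of 12 partners of eIF2 control (its phosphatase subunits, Gcn1 and targets of the integrated stress response), 7 fell within libraries 3 and 4 and none rose. Of all tested genes 9.00% were lower and 10.96% higher there. The median log2 fold change of the 12 was -0.66. Atf4, the transcription factor favoured by eIF2 phosphorylation, was at 720, 598 and 612 CPM in shCtrl and at 759, 381 and 391 CPM in shCxxc5. It was slightly higher in shCxxc5 in pair 2 and lower in pairs 3 and 4, within which it fell by 0.64 on the log2 scale (edgeR adjusted p = 1.40e-14). The others that fell were Chac1 (log2 fold change -1.84), Trib3 (-1.76), Ddit3 (-1.43), Asns (-1.38), Sesn2 (-0.87) and Ppp1r15a, the inducible phosphatase subunit (-0.67). Gcn1, listed as Gcn1l1, the partner of GCN2, did not pass (0.06). Over all 6 libraries none of the 12 passed. The list also moved with number 2: 10 of the 12 were higher in number 2 than in 3 and 4 (median log2 fold change 0.80) and 1 was lower. Of all genes 17.7% were higher and 18.7% lower by that test. By the interaction test the knockdown difference was higher in pair 2 for 8 of the 12 and lower for 3, against 16.8% and 19.01% of all genes. Higher here includes a smaller fall. The median log2 ratio of the 12 was -0.37 in pair 2, and -0.70 and -0.63 in pairs 3 and 4. All 3 pairs were lower in shCxxc5 for 8 of the 12 and higher for 1, against 22.4% and 19.03% of all tested genes.

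Of 16 genes of mTOR and eIF4E control, Ddx3x, Mknk2 and Rps6kb1 rose within libraries 3 and 4 by 0.29, 0.13 and 0.16, and Mknk1 fell by 0.25. Mtor, Rptor, Larp1 and Pdcd4, among the others, had log2 fold changes of 0.06, 0.06, 0.00 and -0.09 that did not pass. Of 8 other genes of initiation and ribosome recycling, 6 rose: Abcf1 by 0.28, Denr by 0.25, Abcf2 by 0.24, Nat10 by 0.21, Dhx29 by 0.19 and Abce1 by 0.18. Of 10 tested genes of elongation and termination, 5 rose (Eef1d, Eef1e1, Eef1g, Etf1 and Gspt1, by 0.15 to 0.23) and Eef1a1 fell by 0.14. Medians were 0.05, 0.20 and 0.16 in these 3 lists, beside -0.003 over all tested genes. Of all tested genes 10.96% were higher and 9.00% lower within libraries 3 and 4, and 23.7% and 11.1% of those of at least 50 CPM.

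Levels between genes were compared as CPM per kb of exon, taken as the mean of the shCtrl libraries. Eif5a was the highest member at 312, followed by Eif3c at 182 and Eif4b at 177, and the ranges of the last 2 overlapped. Within eIF2, alpha stood at 35.5, the Y-linked gamma gene at 19.6, beta at 18.6 and the X-linked gamma gene at 4.79. Among the kinases, Eif2ak2 stood at 38.7 (16.5 to 51.3 over shCtrl libraries), Eif2ak4 at 12.5, Eif2ak1 at 8.11 and Eif2ak3 at 6.73, and the ranges of the last 2 overlapped. Eif4ebp1 at 64.1 was far above Eif4ebp2 at 2.55 and Eif4ebp3 at 0.211. The scaffolds Eif4g1 and Eif4g2 stood at 111 and 78.4 and Eif4g3 at 11.1. The ratio of Eif4g1 to Eif4g3 counts ran from 6.13 to 7.16 in shCtrl and from 7.70 to 8.68 in shCxxc5.

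**Figure D4:**
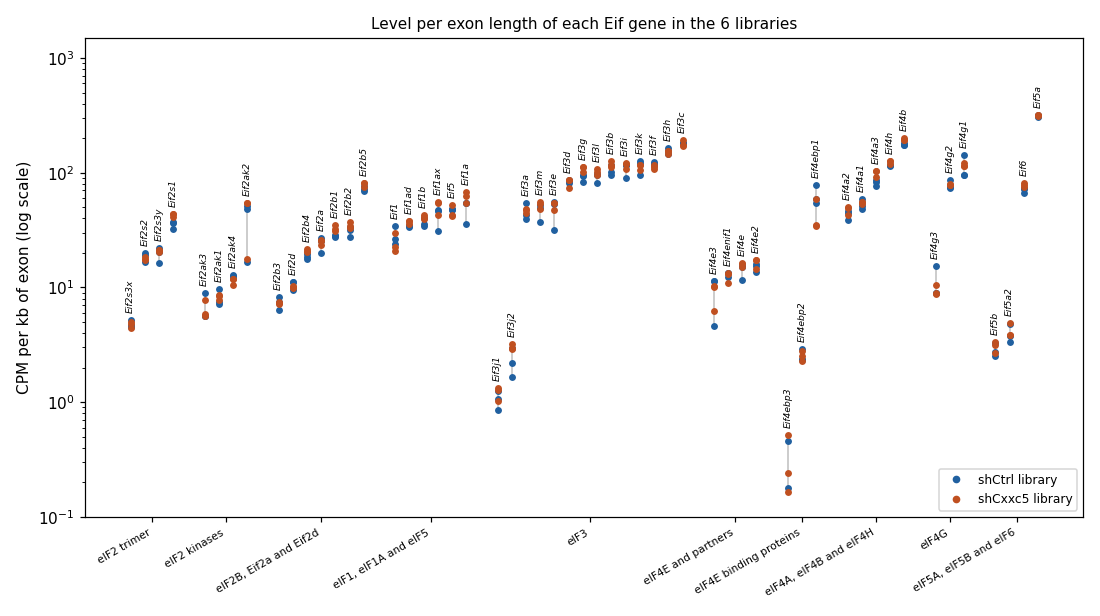
CPM per kb of exon (y axis, log scale) of each member with counts in the 6 libraries, in role groups, with shCtrl libraries in blue and shCxxc5 libraries in orange. The spread over libraries is small beside the differences between genes, except for Eif2ak2, Eif4e3, Eif4ebp1 and Eif4ebp3. The value of 0 for Eif4ebp3 in shCtrl library 4 is not drawn.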

How the data were processed

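STAR 2.5.2b, featureCounts 1.5.1, DESeq2 and GRCm38 are named in the submitters' processing notes. The deposited values are whole-number counts per gene, not normalized. Libraries were stranded (TruSeq mRNA) and sequenced as 50-cycle single or 125-cycle paired reads, per the labels' protocols. No source used here gives the annotation release or the strand setting. Symbols came from GENCODE M21 (259 identifiers unmatched).

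The whole table was fitted and members read out: edgeR 4.0.16 (robust quasi-likelihood, TMM, filterByExpr, Benjamini-Hochberg threshold 0.05) in R 4.3.3, with limma 3.58.1 and DESeq2 1.42.0 as alternatives. Pair ratios used TMM-scaled CPM with a prior count of 2. The members and lists were chosen with earlier results of these data known. Members described in full were all of eIF2, its kinases and the eIF4E binding proteins. In each other role these were the 2 of smallest unadjusted p in libraries 3 and 4 and the 1 of smallest over all 6. Others are named for passing a test or in ranges. Proteins were not used here.

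Deviations of same-numbered libraries from their group means correlated at 0.67 for number 2, 0.55 for number 3 and 0.49 for number 4. Those of number 3 with number 4 across groups correlated at 0.49 and 0.48. With number 2 far from the others in both groups, numbers 3 and 4 deviate the opposite way, whichever of them are paired. The correlations therefore link the libraries numbered 2 but cannot tell 3 with 3 from 3 with 4. Pairing by number in libraries 3 and 4 was taken from the labels. The typical variation of a gene beyond counting noise (edgeR's BCV) was 0.312 with all 6 libraries and 0.0294 in libraries 3 and 4. Fits were tested on simulated counts of known change.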

Additional observations from a re-analysis of the deposited data

Results flagged for a closer look

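Of the members called within libraries 3 and 4, 12 had a knockdown difference that differed between pair 2 and those libraries by the edgeR interaction test. In 9 of them, given here, the direction was also opposite in pair 2. As pair 2 minus libraries 3 and 4 on the log2 scale, it was 0.33 for Eif2s2 and 0.34 for Eif5, which were higher in shCxxc5 in pair 2 and lower in the others. It was negative for 7 members, higher in shCxxc5 in pairs 3 and 4 and lower in pair 2: -0.52 for Eif2ak1, -0.49 for Eif3a, -0.35 for Eif3b, -0.23 for Eif4a1, -0.50 for Eif4g1, -0.22 for Eif4g2 and -0.57 for Eif5b. Pair 2 is 1 library a group, so this term rests on the assumption that it varies like the others.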

How the results depend on the processing

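Over all 6 libraries no member was called under any other setting tried except DESeq2 with the replicate block, chosen after seeing the data, which called 1 lower. Of 14637 genes that setting called 126 lower and 21 higher. The replicate block in edgeR called 0 there. Within libraries 3 and 4, against 22 higher and 4 lower, the replicate block gave 24 and 5, DESeq2 11 and 2, DESeq2 with the replicate block 9 and 2, and upper-quartile scaling 19 and 7. Calls over all genes moved too. The main fit called 10.96% higher and 9.00% lower, DESeq2 5.42% and 4.11%, and upper-quartile scaling 8.68% and 10.1%. The edgeR replicate block called 1790 and 1510 of 14193 genes. Leaving out 1 library gave 13 to 16 higher and 2 to 4 lower. For number 2 against 3 and 4, it gave 3 to 14 higher and 4 to 23 lower. For the difference in pair 2, DESeq2 gave 8 higher and 6 lower. Where no share over all genes stands beside a count here, the count shows only how far the calls moved. The counts of members in 1 direction in all 3 pairs stayed within 1.5 times. Over all 6 libraries, leaving out 1 was tried singly for the 26 tested members described in full, none of them called there by edgeR, and turned the direction of 9, with log2 fold changes from -0.046 to 0.18 for Eif2ak1, -0.25 to 0.48 for Eif2ak2, -0.23 to 0.19 for Eif2ak3, -0.057 to 0.041 for Eif2s3x, -0.012 to 0.20 for Eif2s3y, -0.082 to 0.10 for Eif4ebp2, -0.024 to 0.29 for Eif4g1, -0.017 to 0.087 for Eif4g2 and -0.38 to 0.068 for Eif4g3. Eif4ebp1 kept its direction, from -0.88 to -0.41. A lone library was assumed to vary like the others. Depth left Eif4ebp3 and Eif4e1b untested, and the SE within libraries 3 and 4 was wide for Eif3j1 (0.17), Eif3j2 (0.16) and Eif4ebp2 (0.11).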
